A study of Mus musculus with 22 samples.

Results

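Whole ovaries of 21-day-old mice (P21) were compared with whole ovaries of 14-day-old mice (P14), with 2 libraries at each age. These 4 libraries belong to a series of 22 that covers 11 ages from embryonic day 13 to 2 years. All animals were wild-type CD1 mice, an outbred stock, and received no treatment that the labels mention. The ovaries were frozen after dissection, and their total RNA was sequenced in bulk. The comparison covers the 16117 of 34745 genes in the deposited table that reached 1 FPKM in at least 2 of the 22 libraries. FPKM is a level per gene, corrected for transcript length and for the size of the library. Follicle stage was not recorded in the labels, so the groups are ages and not follicle classes. Nothing in the labels tells whether the libraries of 1 age are different animals or pools, and the p-values therefore reflect no more than the spread between these samples, which might be technical.

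A mouse ovary before puberty holds follicles that each contain an oocyte inside layers of granulosa cells, with steroid-producing theca cells around the larger ones. In the course of the first weeks, follicles pass from the preantral stage, when granulosa growth is driven mainly by signals from the oocyte and from local ligands, to the early antral stage, when a fluid-filled cavity opens and the cells come to depend on follicle-stimulating hormone. Granulosa cells of larger follicles are known for making inhibins and activins, and theca cells for making androgens that granulosa cells turn into estrogen.

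The P21 libraries held an estimated 16750000 and 14910000 reads and the P14 libraries 14410000 and 15660000, inside the range of the series. At least 1 FPKM was reached by 12840 and 12860 genes in the P21 libraries, against 13566 and 13564 in the P14 libraries. Replicates had a Pearson r across genes of 0.991 at P21 and 0.981 at P14, while pairs of libraries from different ages had 0.935 to 0.941. Foxl2, a transcription factor that defines granulosa cells, had 66.3 and 69.8 FPKM at P21 and 102 and 92.6 FPKM at P14, so the tissue label fits its markers at both ages. The second P14 library stood apart in genes of fat cells, whose summed level was 58.1 and 34.3 FPKM at P21, against 95.7 FPKM in the first and 554 FPKM in the second P14 library. Results that rest on that library are given below with and without it.

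Between the ages, 4315 of the 16117 genes changed (26.8%), 1462 of them higher at P21 (9.07%) and 2853 lower (17.7%), by limma with Benjamini-Hochberg adjustment at 0.05. Changes are differences of log2(FPKM + 1), P21 minus P14, a scale that understates the change of low genes. Higher by at least 1 on this scale were 326 genes (2.02%), and lower by at least 1 were 833 (5.17%). The P21 and P14 values did not overlap in 11131 genes (69.1%). The median change of all genes was -0.06. Quantile normalization moved that median by 0.10, and the share of calls that were higher was then 50.2%, against 33.9% with FPKM as deposited. Leaving out 1 library lowered the calls to between 2677 (without the first P21 library) and 3383 (without the second P14 library). Higher genes then numbered 840 without the first P21 library, 950 without the second, 974 without the first P14 library and 1099 without the second, and lower genes 1837 without the first P21 library.

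Of the 326 genes higher by at least 1, 163 had their highest mean of all 11 ages at P21 (50%), against 6.03% of all genes tested. Of the 833 genes lower by at least 1, 348 had their highest mean at P14 (41.8%), against 7.97% of all genes. These genes were chosen on P21 and P14 levels, so both shares are descriptions.

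**Figure D1:**
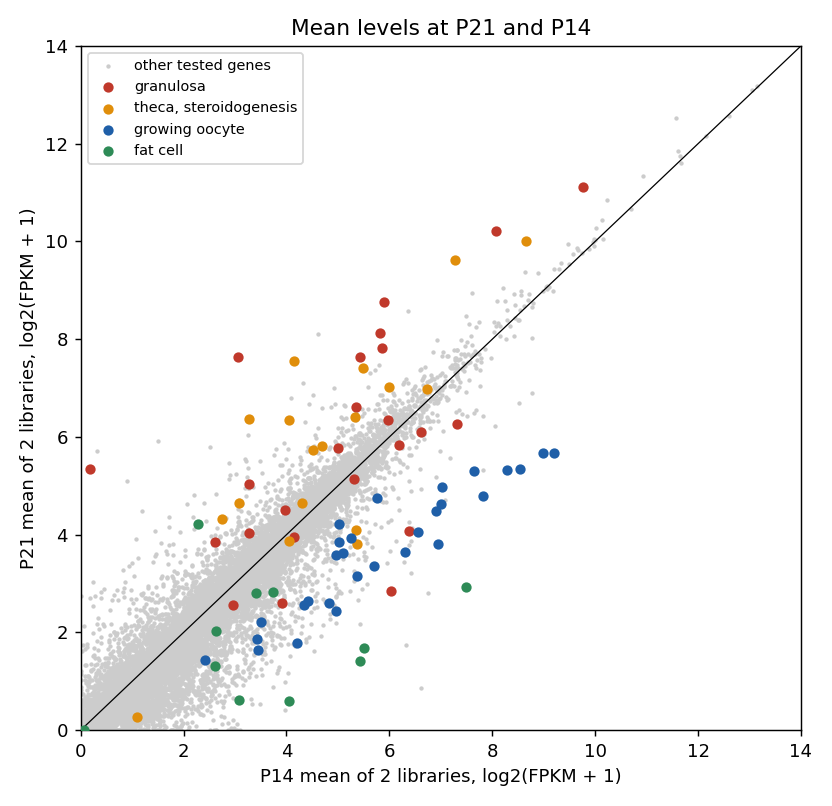
Mean level at P21 (vertical axis) against mean level at P14 (horizontal axis) of each tested gene, both as log2(FPKM + 1), with 2 libraries per mean. Points above the diagonal line are higher at P21; most granulosa (red) and theca (orange) genes lie above it, and the growing oocyte genes (blue) lie below it.

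Genes of granulosa cells were mostly higher at P21. Of 24 listed genes, all tested, 13 rose at P21 and 5 fell, with a median change of 0.95 against -0.06 over all genes. Among all genes 9.07% were higher and 17.7% lower, so the number of decreases was near that share. The inhibin and activin subunits, the activin antagonist follistatin and the BMP antagonist gremlin 1 rose, and kit ligand, a granulosa signal to the oocyte, fell. In bulk tissue, more cells of a type and more RNA per cell cannot be told apart, here or in any group below.

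Inhba, which encodes the inhibin and activin subunit beta A (ENSMUSG00000041324, mm10 chromosome 13, 16011851 to 16031621), had 193 and 200 FPKM at P21, against 6.45 and 8.26 FPKM at P14. Both P21 libraries were far above both P14 libraries, a change of 4.57 (SE 0.37, adjusted p = 7.22e-07). The beta B subunit gene Inhbb (chromosome 1, 119415465 to 119422248) had 412 and 456 FPKM at P21 and 70.1 and 47.7 FPKM at P14, a change of 2.88 (SE 0.29, adjusted p = 5.26e-06). The shared alpha subunit gene Inha (chromosome 1, 75507077 to 75510366) was among the most abundant transcripts of the list at both ages, with 2201 and 2253 FPKM at P21 and 863 and 873 FPKM at P14 (change 1.36, adjusted p = 1.82e-06). Thus all 3 subunit genes were higher, and the beta A gene by the widest margin. In adult ovaries of day 60 (P60), 1099 of the tested genes exceeded P21 (6.82%) and 1080 were below it (6.7%). At P60 Inhba averaged 255 FPKM and did not differ detectably from P21 (change P60 minus P21 0.37, adjusted p = 0.619), while Inhbb averaged 181 FPKM (change -1.25, adjusted p = 0.00962); this comparison uses the same P21 libraries.

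Grem1, a secreted protein that binds BMP ligands (ENSMUSG00000074934, chromosome 2, 113746164 to 113758646), had 39.2 and 39.7 FPKM at P21, against 0.184 and 0.0924 FPKM at P14 (change 5.15, SE 0.23, adjusted p = 4.73e-09). It was near 0 at P14 and at every earlier age, as the plot of levels by age shows. Fst, the activin-binding protein follistatin, had 193 and 205 FPKM at P21 and 44.5 and 39.2 FPKM at P14 (change 2.22, adjusted p = 1.18e-06). The genes for 2 activin subunits and for an inhibitor of activin were thus all raised in the same libraries.

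Fshr, the receptor for follicle-stimulating hormone (chromosome 17, 88984952 to 89200675), had 13.8 and 12.9 FPKM at P21 and 5.20 and 4.94 FPKM at P14 (change 1.24, SE 0.11, adjusted p = 1.31e-06). Hsd17b1, which makes estradiol from estrone, had 267 and 290 FPKM at P21 and 57.2 and 53.4 FPKM at P14 (change 2.31, adjusted p = 2.92e-06). Gja1, the gap junction protein connexin 43 that couples granulosa cells, had 1195 and 1170 FPKM at P21 and 273 and 264 FPKM at P14 (change 2.14, adjusted p = 2.84e-07). Smaller increases were seen in Ihh, a hedgehog ligand that granulosa cells send to theca cells (change 1.77), in Prkar2b, a regulatory subunit of protein kinase A (1.27), and in Esr2, estrogen receptor beta (0.79). Bex4 also rose (1.97), but 49.7% of the 50-base words of its transcripts occur in other genes, so its level is uncertain. The increase of Dhh, another hedgehog ligand (0.53), held only where the first P14 library was the one left out.

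Cyp19a1, the aromatase that completes estrogen synthesis, had 16.2 and 14.4 FPKM at P21 and 2.63 and 14.7 FPKM at P14. The second P14 library lay between the P21 libraries, and the change of 1.11 did not pass (adjusted p = 0.199); without that library it was 2.17 (adjusted p = 0.0149). Nr5a2, a nuclear receptor of granulosa cells, had 81.9 and 78.8 FPKM at P21 and 53.8 and 70.6 FPKM at P14, a change of 0.38 that did not pass (adjusted p = 0.599).

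Of the 5 granulosa genes that fell, kit ligand changed most. Kitl (ENSMUSG00000019966, chromosome 10, 100015630 to 100100416) had 6.05 and 6.41 FPKM at P21, against 56.8 and 72.5 FPKM at P14 (change -3.17, SE 0.18, adjusted p = 2.54e-08). Its receptor gene Kit had 11.1 and 10.8 FPKM at P21 and 13.2 and 12 FPKM at P14 and did not pass (change -0.19, adjusted p = 0.705). Kitl averaged 106 FPKM at embryonic day 17, 84.3 FPKM at day 0 (P0) and 34.3 FPKM at 2 years. It averaged 49.5 FPKM at embryonic day 13, 42.7 FPKM at day 7, 4.41 FPKM at P60 and 4.22 FPKM at 1 year. Whether a difference between libraries has a part in the Kitl decrease was not tested. Gatm, the first enzyme of creatine synthesis, had 14.4 and 17.4 FPKM at P21 and 80.9 and 82.8 FPKM at P14 (change -2.30, adjusted p = 2.45e-06). Amh, anti-Müllerian hormone, which is highest in preantral and small antral follicles, had 63.8 and 87.5 FPKM at P21 and 165 and 151 FPKM at P14 (change -1.07, adjusted p = 0.00397). Wt1, a transcription factor of early granulosa and surface cells, fell by 1.30, and Foxl2 by 0.51. Without the first P21 library 3 of the 5 passed; Amh was not among them (adjusted p = 0.0608), and the call of Foxl2 was lost whichever of the 4 libraries was left out.

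The promoters of Inhba and Ihh are shown as examples of genes that rose and held a searched motif, chosen after the search. RefSeq promoters (GRCm38.p6, from 250 bases before to 50 after a gene's start) were at hand for 18 of the 23 genes that rose in the granulosa and theca lists, 21 promoters in all. The motifs were CAAGGNCA (bound by the NR5A nuclear receptors), TGACGTCA (the cAMP response element), TCACNCCAC (a sterol element) and TATAAA (the TATA box), searched on both strands. Both sequences read 5′ to 3′ along the gene's strand, with matches in capitals.
Inhba promoter, chr13:16011601-16011900, plus strand: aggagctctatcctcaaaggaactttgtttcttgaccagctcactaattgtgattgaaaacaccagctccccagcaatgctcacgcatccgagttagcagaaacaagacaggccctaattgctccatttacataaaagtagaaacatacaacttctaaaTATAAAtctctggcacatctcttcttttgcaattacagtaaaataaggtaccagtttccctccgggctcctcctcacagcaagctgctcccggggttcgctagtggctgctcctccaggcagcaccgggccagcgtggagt
Ihh promoter, chr1:74951623-74951922, minus strand: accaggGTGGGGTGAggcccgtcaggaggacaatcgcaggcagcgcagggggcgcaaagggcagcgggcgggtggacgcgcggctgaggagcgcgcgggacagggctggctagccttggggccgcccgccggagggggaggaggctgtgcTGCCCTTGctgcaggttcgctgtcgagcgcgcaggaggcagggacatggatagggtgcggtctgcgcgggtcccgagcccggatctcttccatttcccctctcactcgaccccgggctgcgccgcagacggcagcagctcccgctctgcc
In the Inhba promoter the capitals mark TATAAA, which begins 91 bases before the start site. In the Ihh promoter they mark the sterol element and then the NR5A motif, both as their reverse complement. The NR5A motif was in 1 of the 21 promoters, against 6.71% of all 32851 promoters, and the sterol element in 1, against 1.24%. TATAAA was in 2, those of Inhba and Ephx1, against 13.6%, and the cAMP response element in none, against 1.79%. A match is a run of letters and not a shown binding site.

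**Figure D2:**
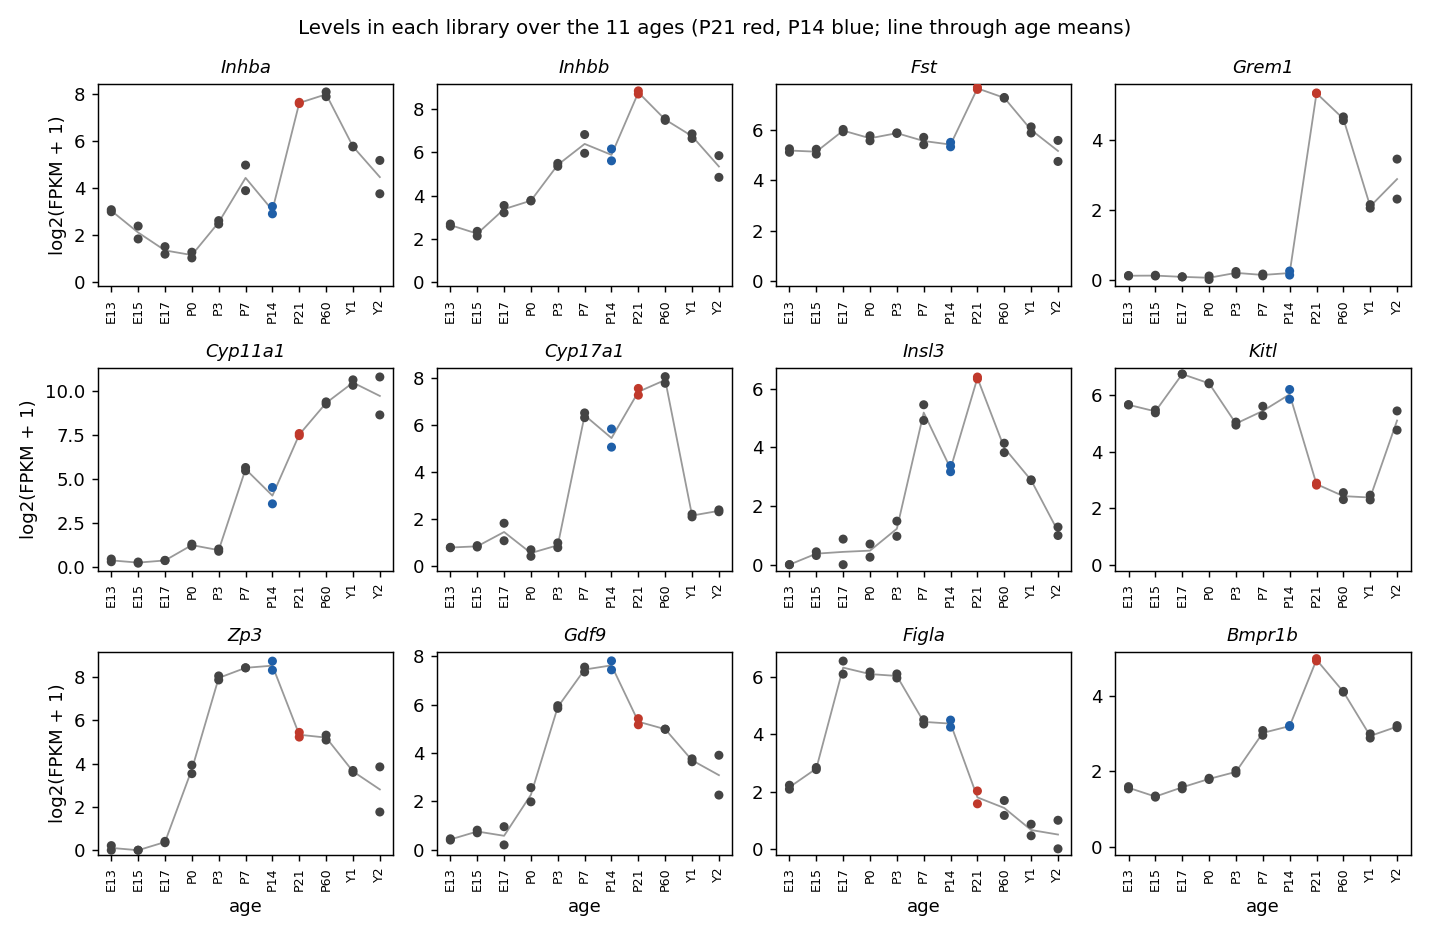
Level in each library, as log2(FPKM + 1), of 12 genes over the 11 ages, with P21 in red, P14 in blue and a line through the age means. Inhba, Inhbb, Fst, Grem1, Cyp11a1, Cyp17a1, Insl3 and Bmpr1b are higher at P21 than at P14, and Kitl, Zp3, Gdf9 and Figla are lower.

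Genes of theca cells and of steroid synthesis were higher at P21 as well. Of 18 listed genes, all tested, 10 rose and 2 fell (all genes, 9.07% higher and 17.7% lower), with a median change of 1.18. The increases covered the step from cholesterol to pregnenolone, the 3-beta step, the androgen step and the electron carriers Fdxr and Cyb5a. The Cyb5a call (change 1.09) was lost whichever of the 4 libraries was left out (adjusted p up to 0.0888), and Fdx1, the ferredoxin between Fdxr and Cyp11a1, did not pass (change 1.09, adjusted p = 0.0751). Star, which brings cholesterol into mitochondria, was lower in both P21 libraries without passing the test.

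Cyp11a1, the side-chain cleavage enzyme that makes pregnenolone (ENSMUSG00000032323, chromosome 9, 58006411 to 58027023), had 193 and 178 FPKM at P21, against 11.1 and 22.1 FPKM at P14 (change 3.48, SE 0.46, adjusted p = 5.39e-05). At P60 it averaged 649 FPKM, above P21 (change P60 minus P21 1.80, adjusted p = 0.0162). Cyp17a1, the enzyme that makes androgens, had 186 and 153 FPKM at P21 and 32.1 and 55.6 FPKM at P14 (change 1.97, adjusted p = 2.57e-05). Hsd3b1, which turns pregnenolone into progesterone, had 1044 and 1003 FPKM at P21 and 387 and 421 FPKM at P14 (change 1.34, adjusted p = 0.0197). The libraries of Hsd3b1 were well apart, but its call was lost whichever of the 4 libraries was left out (adjusted p up to 0.0952).

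Insl3, a peptide hormone of theca cells, had 79.8 and 83.5 FPKM at P21 and 8.01 and 9.43 FPKM at P14 (change 3.09, SE 0.26, adjusted p = 8.81e-07). It averaged 36.1 FPKM at day 7 (P7) and 14.9 FPKM at P60, so the P21 level was above those of P7, P14 and P60. Of its transcript words, 61.8% occur in other genes, so this level is uncertain. Aldh1a1, which makes retinoic acid, had 827 and 756 FPKM at P21 and 126 and 181 FPKM at P14 (change 2.38, adjusted p = 3.14e-05). The nuclear receptor gene Nr5a1, which drives many steroidogenic genes, rose by 1.13, with 55.2 and 56.0 FPKM at P21 and 22.9 and 26.8 FPKM at P14. Ephx1, an epoxide hydrolase, rose by 2.29, Srd5a1, a steroid 5-alpha-reductase, by 1.60, and Fdxr, the ferredoxin reductase of mitochondria, by 1.22. The level of Srd5a1 is uncertain, since 15.1% of its transcript words occur in other genes.

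Star had 15.7 and 16.6 FPKM at P21 and 31.9 and 47.8 FPKM at P14 (change -1.23, adjusted p = 0.362). Lhcgr, the receptor for luteinizing hormone, had 25.4 and 22.5 FPKM at P21 and 5.56 and 9.40 FPKM at P14 (change 1.59, adjusted p = 0.126). The groups of both genes did not overlap. Both passed in a fit without the 2-year libraries, with adjusted p of 0.000177 for Star and 8.07e-05 for Lhcgr. The 2-year replicates differed by an SD of 0.423 over genes, against 0.164 at P21 and 0.228 at P14, and they enter the shared estimate of spread. Of the 2 members that fell, Nr4a1, an immediate early nuclear receptor, had 12.5 and 13.6 FPKM at P21 and 26.3 and 54.0 FPKM at P14 (change -1.46). The other, Hsd3b6, had 1.31 FPKM or less in the 4 libraries, and 15.6% of its transcript words occur in other genes.

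Several genes that rose at P21 had been lower at P14 than at P7. From P7 to P14, 197 of all genes fell (1.22%) and 399 rose (2.48%). Insl3 fell by 1.91 (adjusted p = 0.000554), Serpina3a, a serine protease inhibitor, by 2.10 (adjusted p = 0.00237), Cyp17a1 by 0.97 (adjusted p = 0.0358) and Fshr by 0.59 (adjusted p = 0.00653). The P14 libraries are common to both comparisons, so a low P14 value enters both.

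In the cholesterol synthesis list, 3 of 22 tested genes rose and none fell, with a median change of 0.75. Over all genes 9.07% were higher and 17.7% lower. Srebf2, the transcription factor of the pathway, had 25 and 27 FPKM at P21 and 15.2 and 17.2 FPKM at P14 (change 0.65, adjusted p = 0.00917), a call lost without the second P21 or the first P14 library. Msmo1 rose by 1.33, a call lost whichever of the 4 libraries was left out. The count of 3 was 14 in a fit to the 4 libraries alone and 15 without the 2-year libraries, and 1 without the second P21 or the first P14 library.

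Genes of cumulus expansion, ovulation and the corpus luteum moved in both directions. Of 14 tested, 2 rose and 3 fell, numbers near what the shares of all genes (9.07% higher, 17.7% lower) give for a list of this size, and Areg, Btc, Pgr and Ptgs2 were among those under the 1 FPKM filter. Prlr, the prolactin receptor, had 11.3 and 10.2 FPKM at P21 and 2.74 and 3.48 FPKM at P14 (change 1.52, adjusted p = 0.0217), a call lost whichever of the 4 libraries was left out. Without the second P21 or the first P14 library none of the list rose. Akr1c18, which breaks down progesterone, had 0.496 and 0.457 FPKM at P21 and 3.83 and 7.78 FPKM at P14, without passing (change -2.14, adjusted p = 0.192), and passed as lower with the 4 libraries alone (adjusted p = 0.0306) and without the 2-year libraries (0.000256). Plat, tissue plasminogen activator, fell by 0.86.

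**Figure D3:**
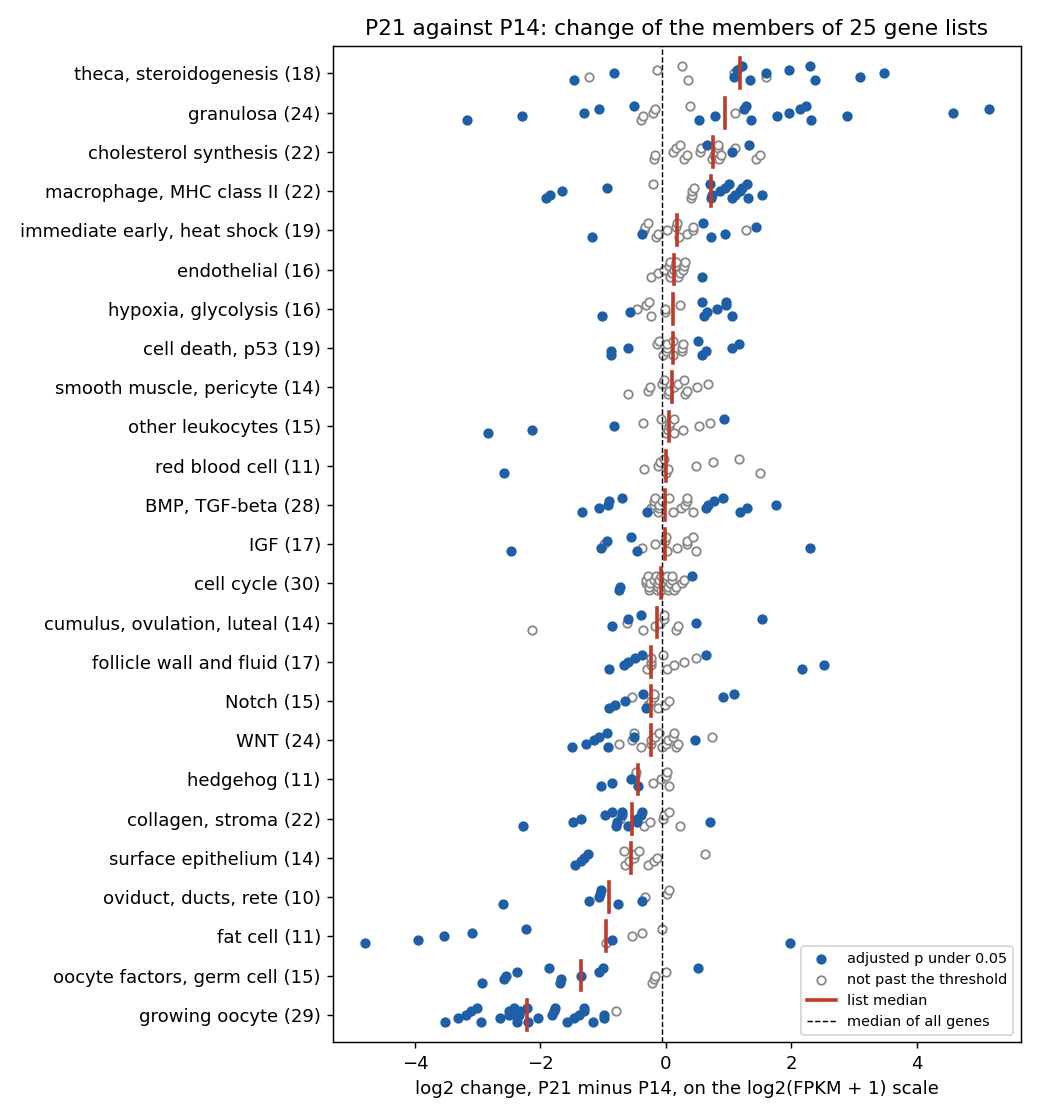
Change of each tested member of the 25 gene lists, P21 minus P14, on the log2(FPKM + 1) scale, with the number tested in brackets; filled points passed at an adjusted p of 0.05, red bars are list medians and the dashed line is the median of all genes. Theca and granulosa lists lie at the top, with medians of 1.18 and 0.95, and the growing oocyte list lies at the bottom, with a median of -2.22.

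Genes of the growing oocyte were lower at P21 almost without exception. Of 31 listed genes 29 were tested, 28 fell and none rose, and their median change was -2.22. Among all genes 17.7% were lower and 9.07% higher. Fgf8 had 1.02 FPKM in the first P14 library but did not reach 1 FPKM in 2 libraries. Of the 31 listed genes 30 were found in the deposited table. The list covers the zona pellucida, the oocyte's secreted growth factors and the maternal proteins stored for the embryo, and members of each of these classes fell.

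Zp3 (ENSMUSG00000004948, chromosome 5, 135980099 to 135988624) and Zp2 encode proteins of the zona pellucida, the egg coat. Zp3 had 36.4 and 42.5 FPKM at P21, against 424 and 317 FPKM at P14 (change -3.19, SE 0.42, adjusted p = 5.49e-05). Zp2 had 46.6 and 53.1 FPKM at P21 and 568 and 448 FPKM at P14 (change -3.32, adjusted p = 1.86e-05). Padi6, a protein of the oocyte's cytoplasmic lattices, showed the largest change of the list, with 44.4 and 55.7 FPKM at P21 and 635 and 536 FPKM at P14 (change -3.53, adjusted p = 1.42e-05). Dppa5a fell by 3.22, but 38.6% of its transcript words occur in other genes. The other 3 genes had P60 means close to P21, 35.9 FPKM for Zp3, 43.8 FPKM for Zp2 and 43.2 FPKM for Padi6.

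Gdf9, the growth factor that oocytes send to granulosa cells (chromosome 11, 53431023 to 53437904), had 35.0 and 41.9 FPKM at P21 and 224 and 173 FPKM at P14 (change -2.33, adjusted p = 0.00033). Its close relative Bmp15 had 16.6 and 18.4 FPKM at P21 and 34.6 and 28.0 FPKM at P14, and was the 1 tested member that did not pass (change -0.80, adjusted p = 0.057). It passed as lower with quantile normalization (adjusted p = 0.0403), with mitochondrial genes left out (0.0456), with the 4 libraries alone (0.0324) and without the 2-year libraries (0.00105). On the linear scale the P21 mean of Gdf9 was 38.5 FPKM against 198 FPKM at P14, and that of Bmp15 17.5 FPKM against 31.3 FPKM. Whether the 2 genes differ in their change was not tested. Npm2, an oocyte histone chaperone, fell by 3.01, Nlrp14 by 2.95 and Nlrp5, of the maternal complex under the oocyte membrane, by 2.37.

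Transcription factors and germ cell proteins of oocytes fell in 10 of 15 cases, and 1 rose, with a median of -1.35. The shares of all genes were 17.7% lower and 9.07% higher. Sohlh1, a factor of early follicle growth, had 1.62 and 2.55 FPKM at P21 and 25.1 and 19.5 FPKM at P14 (change -2.92, adjusted p = 1.15e-06). Figla, which turns on the zona genes, had 1.97 and 3.06 FPKM at P21 and 21.6 and 18.1 FPKM at P14 (change -2.58, adjusted p = 7.92e-06). The RNA helicase gene Ddx4, a general germ cell marker, fell by 2.55, Nobox by 2.37 and Lhx8 by 1.69. Taf4b, a subunit of the basal transcription machinery, was the member that rose, with 9.02 and 9.999 FPKM at P21 and 5.81 and 7.04 FPKM at P14 (change 0.50, adjusted p = 0.00196).

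Genes of the BMP and TGF-beta pathways moved in both directions, as did all genes (9.07% higher, 17.7% lower). Of 28 genes 7 rose and 6 fell, and 4 fell without the second P21 or the second P14 library. Bmpr1b, a type 1 BMP receptor (chromosome 3, 141837136 to 142169425), had 30.6 and 29.3 FPKM at P21 and 8.26 and 8.09 FPKM at P14 (change 1.75, SE 0.08, adjusted p = 4.73e-09). Its type 2 partner Bmpr2 had 57 and 54.2 FPKM at P21 and 22.8 and 21.6 FPKM at P14 (change 1.29, adjusted p = 2.12e-07). The ligand genes Bmp3 and Bmp2 rose by 1.17 and 0.91, and Id3, a common BMP target, by 0.65. The genes that fell were the ligand genes Bmp7, Bmp4, Bmp5 and Tgfb2, the mediator Smad3 and the receptor gene Acvr1b. With 1 of the 4 libraries left out in turn, the Acvr1b call held in 2 fits and the Bmp5 call in 1. The Bmp5 change then ran from -1.10 to -0.71. Bmp7 had 1.29 and 1.93 FPKM at P21 and 6 and 5.20 FPKM at P14 (change -1.35, adjusted p = 3.54e-05). Smad3, a mediator of activin and TGF-beta signals, had 29.6 and 31.6 FPKM at P21 and 66.5 and 64.4 FPKM at P14 (change -1.07, adjusted p = 1.04e-05).

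Among 17 genes of the IGF pathway, 1 rose and 5 fell, against 9.07% higher and 17.7% lower over all genes. Igfbp3, an IGF-binding protein, had 5.04 and 3.42 FPKM at P21 and 26.1 and 29.4 FPKM at P14 (change -2.47, adjusted p = 1.86e-05). Stc1, a secreted inhibitor of the IGF-binding protein protease, was the gene that rose, with 44.4 and 44.0 FPKM at P21 and 9.44 and 7.13 FPKM at P14 (change 2.29, adjusted p = 0.00095). Igf1 had 22.8 and 22.4 FPKM at P21 and 15.3 and 20.2 FPKM at P14, without passing (adjusted p = 0.169). The 5 decreases were 2 without the first P21, the second P21 or the second P14 library, and without the last of these 2 genes rose.

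Of 17 tested genes for the follicle wall and follicular fluid, 3 rose and 5 fell (all genes, 9.07% higher and 17.7% lower). Aqp8, a water channel, had 5.55 and 5.40 FPKM at P21, against 0.0441 and 0.223 FPKM at P14 (change 2.52, SE 0.11, adjusted p = 4.99e-09), and averaged 0.525 FPKM at P60. Itih2, a heavy chain that is joined to hyaluronan, had 20.4 and 18.9 FPKM at P21 and 3.62 and 3.53 FPKM at P14 (change 2.17, adjusted p = 3.89e-05). Serpine2, a protease inhibitor, rose by 0.63. Nid1, a basement membrane protein, fell by 0.91, and the 5 decreases were 3 without either P21 library or the first P14 library.

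Members of the hedgehog, WNT and Notch pathways, local signals of the follicle, were lower more often than higher, as were all genes (17.7% against 9.07%). In the hedgehog list 4 of 11 fell and none rose, with Gas1 at -1.04, Gli3 at -0.86 and Gli2 at -0.56. The pathway's direct targets Gli1 and Ptch1 did not pass (-0.47 and -0.20, adjusted p = 0.114 and 0.391). The ligand gene Ihh, as given above, rose to 31.3 and 32.5 FPKM at P21, against 7.87 and 9.49 FPKM at P14 (adjusted p = 8.32e-07). Without the first P14 library 2 of the 4 decreases passed, and Gli2 was not among them.

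Of 24 tested WNT pathway genes, 7 fell and 1 rose. Rspo1 and Wnt11 were among the 7. With 1 of the 4 libraries left out in turn, the Rspo1 call held in 2 fits and the Wnt11 call in 1. The Rspo1 change then ran from -1.33 to -0.82 and the Wnt11 change from -0.67 to -0.36. Nkd1, a feedback inhibitor, had 6.57 and 7.24 FPKM at P21 and 23.5 and 19.4 FPKM at P14 (change -1.50, adjusted p = 0.000211). The ligand genes Wnt6 and Wnt4 fell by 1.27 and 0.93, the antagonist Sfrp1 by 1.15, and Axin2, a standard target, by 0.93, a call lost without the first P21 library. The increase, of the receptor gene Fzd2, was lost whichever of the 4 libraries was left out.

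Of 15 Notch genes, 2 rose and 5 fell, and the target genes divided between the directions. Hey2 had 33.2 and 36.7 FPKM at P21 and 17.6 and 14.3 FPKM at P14 (change 1.09, adjusted p = 9.02e-06), and Heyl had 36.6 and 37.3 FPKM at P21 and 19.9 and 18.5 FPKM at P14 (change 0.91, adjusted p = 6.65e-07). Hey1 had 1.89 and 2.03 FPKM at P21 and 4.74 and 4.33 FPKM at P14 (change -0.90, adjusted p = 7.91e-05), and Hes1 fell by 0.82. The 5 decreases were 3 without the first P21 library and 2 without the second P21 or the first P14 library.

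Stromal matrix genes fell at P21. Of 22 collagen and stroma genes 14 fell and 1 rose (all genes, 17.7% lower and 9.07% higher), with a median of -0.53. Postn, a matrix protein of fibroblasts, had 2.03 and 1.28 FPKM at P21 and 9.03 and 15.1 FPKM at P14 (change -2.27, adjusted p = 0.000523). Col1a1, the main fibrillar collagen, had 93.5 and 91.6 FPKM at P21 and 141.1 and 183 FPKM at P14 (change -0.79, adjusted p = 0.00273), and Eln, elastin, fell by 1.49. Pdgfra, a receptor of stromal and theca progenitor cells, had 15 and 16.4 FPKM at P21 and 34.0 and 29.4 FPKM at P14 (change -0.96, adjusted p = 5e-05). Postn, Col1a1 and Col14a1 were highest in the second P14 library, the one with the most fat cell RNA; 11 of the 14 decreases passed without it, Col14a1 not among them, and the part of fat in them was not tested. Ogn, a small proteoglycan, rose by 0.70, a call lost without the first P21 or the first P14 library.

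Blood vessel genes differed little, with medians of 0.13 for endothelial and 0.09 for smooth muscle and pericyte genes. The shares of all genes were 9.07% higher and 17.7% lower. Of 16 endothelial genes 1 rose, Tek, the receptor for angiopoietins, with 8.21 and 8.52 FPKM at P21 and 4.98 and 5.68 FPKM at P14 (change 0.57, adjusted p = 0.000487). Without the second P14 library Cldn5, of endothelial junctions, passed as well (change 0.39, adjusted p = 0.036). None of 14 smooth muscle and pericyte genes passed. Rgs5, a pericyte marker, had 15.9 and 15.8 FPKM at P21 and 23.5 and 26.1 FPKM at P14 (change -0.61, adjusted p = 0.109), and passed as lower with the 4 libraries alone (adjusted p = 0.0182) and without the 2-year libraries (9.81e-05), where 2 genes of the list passed as lower. In the other direction, 1 gene passed as higher with a replicate block, with the 4 libraries alone, without the 2-year libraries or with median-of-ratios scaling, and 2 did with quantile normalization.

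Macrophage genes and genes of antigen presentation went opposite ways. Of 22 genes in that list 13 rose and 4 fell, and the 4 were all genes for MHC class II presentation. Among all genes 9.07% were higher and 17.7% lower, so the number of decreases was near that share. Lyz2, the lysozyme of macrophages, had 105 and 94.6 FPKM at P21 and 35.2 and 32.6 FPKM at P14 (change 1.53, adjusted p = 0.0103). Its level is uncertain, since 15.4% of its transcript words occur in other genes. C1qa, a complement subunit that resident macrophages make, had 38.4 and 33.2 FPKM at P21 and 15.5 and 12.6 FPKM at P14 (change 1.29, adjusted p = 0.000269). Csf1r, the receptor on which macrophages depend, rose by 1.00 and Adgre1, which encodes F4/80, by 1.11. The 13 increases were 7 without the first P21 library and 8 without the second P14 library, and Lyz2 was among those lost each time.

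Cd74, the class II invariant chain (ENSMUSG00000024610), had 9.60 and 11.0 FPKM at P21, against 40.3 and 42.2 FPKM at P14 (change -1.91, SE 0.26, adjusted p = 7.24e-05). H2-Ab1 had 2.53 and 3.19 FPKM at P21 and 15.3 and 10.9 FPKM at P14 (change -1.85), and H2-Aa fell by 1.65 and H2-Eb1 by 0.94, the last a call lost without the first library of either age. Cd74 averaged 3.36 FPKM at P7, 41.2 FPKM at P14 and 10.3 FPKM at P21, so P14 stood above P7 and P21. At P60 Cd74 averaged 139 FPKM, above P14. The mast cell protease gene Mcpt4 was listed at 0 in both P21 libraries and had 7.56 and 4.97 FPKM at P14, and Cpa3, another mast cell protease, had 0.118 and 0 FPKM at P21 and 4.61 and 2.86 FPKM at P14 (change -2.14, adjusted p = 0.000645). Cpa3 averaged 25.7 FPKM at embryonic day 17, 67.6 FPKM at day 0 (P0) and 18.0 FPKM at 2 years, and Mcpt4 2.79, 33.6 and 3.66 FPKM. At P3 they averaged 5.23 and 5.33 FPKM, and at P7 0.306 and 0.433 FPKM. Whether a difference between libraries has a part in their decrease was not tested. Mcpt4, Cpa3 and the T cell receptor gene Trac were the 3 that fell among 15 tested genes of other leukocytes, near the 17.7% of all genes. The Trac call held in 2 of the 4 fits that left out 1 library. Gzmb rose, a call lost without the first P21 or the second P14 library.

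Summed levels of the fat, duct and surface epithelium lists were higher in the P14 libraries. In the fat cell list 6 of 11 tested genes fell and 1 rose (all genes, 17.7% lower and 9.07% higher). Cfd, the adipocyte protein adipsin (ENSMUSG00000061780, chromosome 10, 79890853 to 79892655), had 13 and 0.218 FPKM at P21, against 41.1 and 315 FPKM at P14 (change -4.80, SE 1.6, adjusted p = 0.0344). Adipoq, the adipocyte hormone adiponectin, had 3.31 and 0 FPKM at P21 and 13.5 and 70.7 FPKM at P14 (change -3.96, adjusted p = 0.016). Both ages varied widely between their libraries, and the 6 decreases were 0 without the second P14 or the second P21 library and 9 without the first P14 library. Without the second P14 library the change was -3.35 for Cfd (adjusted p = 0.247), -2.80 for Adipoq (0.156), -3.06 for Car3 (0.153) and -2.34 for Fabp4 (0.117).

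Pparg, a nuclear receptor of fat cells that granulosa cells also express, was the gene of the list that rose. It had 18.0 and 17.2 FPKM at P21 and 2.76 and 5 FPKM at P14 (change 1.97, SE 0.16, adjusted p = 6.16e-07), opposite to the defining fat genes in the same libraries.

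In the list for oviduct, ducts and rete, 7 of 10 tested genes fell and none rose (all genes, 17.7% lower and 9.07% higher). Summed levels of that list were 12.2 and 13.2 FPKM at P21 and 28.5 and 37.3 FPKM at P14. Cdh16, a cadherin of duct epithelium, had 0.179 and 0.0447 FPKM at P21 and 3.46 and 9.02 FPKM at P14 (change -2.59, adjusted p = 5.85e-05), and Foxj1, the factor of ciliated cells, fell by 1.22 (-0.63 without the second P14 library, adjusted p = 0.0857). In the surface epithelium list 4 of 14 fell (17.7% of all genes did), none rose and 10 did not pass. The 4 were Bnc1 (-1.45), Cdh1 (-1.35), Krt18 and Wt1, the last also a member of the granulosa list. The Krt18 call held in 2 of the 4 fits that left out 1 library, where its change ran from -1.35 to -1.14. Changes in the list ran up to 0.63. Its summed levels were 88.7 and 96.7 FPKM at P21 and 168 and 137 FPKM at P14. The red blood cell list summed to 82.4 and 77.3 FPKM at P21 and 85.5 and 33.1 FPKM at P14. Of its 11 tested genes only Hba-a2 passed, as lower; 89.3% of its transcript words occur in other genes, and the call held only where the second P14 library was the one left out. How far such tissue accounts for changes in other genes was not tested.

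**Figure D4:**
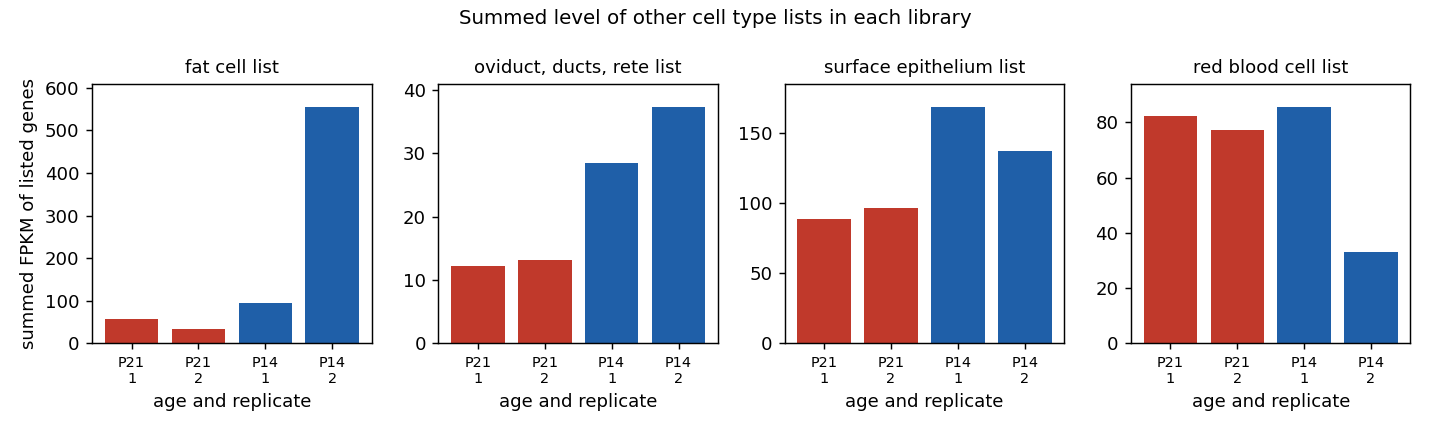
Summed FPKM of the listed genes of 4 other tissues (vertical axes) in each P21 (red) and P14 (blue) library, 1 bar per library. The second P14 library stands out in the fat cell list at 554 FPKM, and both P14 libraries exceed both P21 libraries in the oviduct and surface epithelium lists.

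Cell cycle genes hardly differed. Of 30 genes 2 fell and 1 rose, with a median of -0.08, close to that of all genes. Both counts were below the shares of all genes (17.7% lower, 9.07% higher). Mki67, a marker of dividing cells, had 32.4 and 33.7 FPKM at P21 and 38.7 and 31.8 FPKM at P14 (change -0.08, adjusted p = 0.902). Birc5 and Ttk, of the mitotic spindle, each fell by 0.74, and Mcm3, of the replication helicase, rose by 0.42, a call lost without the first P14 library.

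Among 19 tested genes of cell death and the p53 pathway, which accompany the loss of follicles by atresia, 5 rose and 3 fell. Over all genes 9.07% were higher and 17.7% lower, so the decreases were near that share. Gadd45a, a growth arrest gene, had 7.85 and 6.60 FPKM at P21 and 2.77 and 2.57 FPKM at P14 (change 1.16, adjusted p = 0.0113), and Tnfrsf10b, a death receptor, had 10.5 and 10.2 FPKM at P21 and 4.48 and 4.45 FPKM at P14 (change 1.05, adjusted p = 0.000121). Bcl2, a survival gene, fell by 0.88, and Trp63, the p53 relative that guards oocytes, by 0.87. The 5 increases were 3 without the first P21 or the second P14 library, and Gadd45a was then not among them.

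Of 16 tested genes of glycolysis and hypoxia 7 rose and 2 fell. Ldha, lactate dehydrogenase, had 71.4 and 66.8 FPKM at P21 and 35.5 and 34.3 FPKM at P14 (change 0.96, adjusted p = 0.00032). Eno1, enolase, rose by 1.06, with 26% of its transcript words in other genes, and Pfkp, phosphofructokinase, by 0.96. Vegfa did not pass (change 0.23, adjusted p = 0.692). The 7 increases were 4 without the second P14 library, with Pfkp among those lost, and the 2 decreases, of Egln3 and Hk2, were 0 without it or without the second P21 library. Of 19 tested immediate early and heat shock genes 4 rose, led by Egr3 (1.44), and 2 fell, led by Nr4a2 (-1.18). The shares of all genes were 9.07% higher and 17.7% lower. Without either P21 library or the first P14 library 1 of the 2 decreases passed.

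Several of the largest increases lay outside the lists. Serpina3a had 55.1 and 47.7 FPKM at P21, against 0.249 and 0.229 FPKM at P14, the largest increase by the rule for named genes (change 5.40, SE 0.34, adjusted p = 7.11e-08). Slc38a5, an amino acid transporter, had 58.8 and 59.5 FPKM at P21 and 1.5 and 2.16 FPKM at P14 (change 4.42, adjusted p = 5.69e-07). Crabp2, which carries retinoic acid to the nucleus, had 34.5 and 31.6 FPKM at P21 and 0.741 and 1.00 FPKM at P14 (change 4.19, adjusted p = 1.26e-08). In all 3 genes both P21 libraries were far above both P14 libraries.

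Nap1l5, a nucleosome assembly protein relative, had 276 and 277 FPKM at P21 and 22 and 24.6 FPKM at P14 (change 3.51, adjusted p = 1.69e-07). Car14, a membrane carbonic anhydrase, had 55.7 and 53.1 FPKM at P21 and 3.96 and 5.44 FPKM at P14 (change 3.29, SE 0.11, adjusted p = 3.03e-10). On the lower side, 2 ribosomal protein genes were among the 10 largest decreases. Rpl29 had 0.715 and 0.906 FPKM at P21 and 122 and 73.4 FPKM at P14 (change -5.72, adjusted p = 3.14e-10), and Rpl21 had 3.92 and 3.05 FPKM at P21 and 42.6 and 41.1 FPKM at P14 (change -3.26, adjusted p = 2.33e-05). Across the 11 ages Rpl29 averaged 71.3 FPKM at E17, 153 FPKM at P0, 97.4 FPKM at P14 and 110 FPKM at 2 years, and at most 1.33 FPKM at the other ages. Rpl21 was high at the same 4 ages, with 23.5, 39.2, 41.8 and 43.1 FPKM, and averaged at most 7.82 FPKM elsewhere. Hba-a2 was also high at these ages, with 129, 282, 5.70 and 5.05 FPKM, and averaged at most 1.48 FPKM elsewhere. The pseudogene Hmgb1-ps7 went the other way, with 29.4, 10.4, 8.55 and 5.38 FPKM, and averaged at least 38.26 FPKM elsewhere. These 4 ages do not follow each other, and what the libraries of these ages share was not tested. P14 is among them and P21 is not, so in such genes age and a difference between libraries cannot be told apart. How many genes follow this split was not tested. Of the transcript words of Rpl29 35.1% and of Rpl21 14.9% occur in other genes, so both levels are uncertain.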

How the data were processed

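The deposited table gives FPKM per gene, computed by the authors from the reads of each library. HISAT2, StringTie and edgeR and the build mm10 are named per the submitters' processing notes, and the series' design text names TopHat. Which aligner made these values, and how reads with several placements were handled, is not given in the sources used here. Symbols and positions come from GENCODE M21 (GRCm38), which held 34344 of 34745 gene IDs. In the file 27 gene names had become dates, and genes were therefore matched by ID.

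A gene entered the test if 2 or more of the 22 libraries held 1 FPKM or more of it. The model was limma 3.58.1 (R 4.3.3) on log2 of FPKM plus 1, with the 11 ages as 1 factor, all libraries included and an intensity trend in eBayes. Benjamini-Hochberg adjusted p-values under 0.05 were called. The fit was tested on simulated data. Depth was estimated from low FPKM of genes with 1 transcript, of which 94.6% to 97.1% were whole within 0.02 reads, and gave 11470000 to 18140000 reads per library; 1 FPKM of a 2 kb transcript then stood for 28.8 to 33.5 reads in the 4 libraries. No count test was run, since reads of most genes could not be recovered. Words of 50 bases shared with transcripts of other genes mark uncertain levels.

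The 25 gene lists (477 members, 471 of 474 distinct genes found) and the members were chosen with earlier results of these data known. Named were the 10 largest increases and decreases past the threshold with libraries that did not overlap and a higher mean of at least 10 FPKM, without clone names and mitochondrial genes. Added were the 3 members with the largest change in each list and 16 follicle genes. Some of these genes are not reported here. Other members are named as examples, chosen after their values were seen. Python 3.11.15, pandas 2.3.3 and numpy 2.4.6 served for all tables. Alternatives covered the pseudocount, the filter, the scaling, the libraries in the fit, the trend, a replicate block and the loss of each library.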

Additional observations from a re-analysis of the deposited data

How the results depend on the processing

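The 4315 genes called, 1462 higher and 2853 lower, became 4326, 1436 and 2890 with a pseudocount of 0.1, and 4808, 1495 and 3313 with no filter on low values. Median-of-ratios scaling gave 4424 calls, 1870 of them higher, and quantile normalization 4404, of which 2211 were higher and 2193 lower. A fit to the 4 libraries alone gave 3931 calls, and a fit without the 2-year libraries 5592. Leaving out 1 of the 4 libraries gave 2677 to 3383 calls, 840 to 1099 higher and 1837 to 2284 lower. The lone library of an age was then assumed to vary like the other ages. No named gene changed direction under any setting tried. Calls of named genes changed most often in the fit to the 4 libraries alone, where 9 were lost and 9 gained, and without the second P14 library, where 13 were lost and 2 gained.

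The difference between replicates correlated at 0.0246 between P21 and P14 over genes. This gives no sign that the replicate numbers pair the libraries, but 1 correlation cannot show that they are unpaired. A fit with the replicate block called 4226 genes, 1437 higher and 2789 lower, and kept the call of each of the 97 named genes. With 2 libraries per age the spread rests on the other ages too, and levels under 1 FPKM rest on few reads.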

Other observations

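Genes outside the lists also stood apart at P21, and those named here were chosen after their values were seen. Nppc, the precursor of the C-type natriuretic peptide by which granulosa cells hold oocytes in meiotic arrest, had 31 and 37.7 FPKM at P21, against 6.71 and 6.13 FPKM at P14 (change 2.25 on the log2(FPKM + 1) scale, limma adjusted p = 6.34e-07). Angpt2, a ligand of the receptor that Tek encodes, had 25 and 23.5 FPKM at P21 and 3.73 and 4.86 FPKM at P14 (change 2.26, adjusted p = 1.06e-06). Thbs4, a thrombospondin of the extracellular matrix, had 114 and 106 FPKM at P21 and 13.3 and 18.7 FPKM at P14 (change 2.73, adjusted p = 3.17e-08). Apoa4, an apolipoprotein, had 141.3 and 131 FPKM at P21 and 18.9 and 19.1 FPKM at P14 (change 2.78, adjusted p = 1.61e-07).

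On the lower side, Tgfbi, a matrix protein induced by TGF-beta, had 14.1 and 13 FPKM at P21 and 88.1 and 82.0 FPKM at P14 (change -2.56, adjusted p = 5.15e-08), and averaged 63.2 FPKM at P60. Patl2, an RNA-binding protein of oocytes, had 1.22 and 1.27 FPKM at P21 and 16.8 and 13.7 FPKM at P14 (change -2.85, adjusted p = 2.34e-08). In each of these 6 genes the P21 and P14 libraries did not overlap, as in 69.1% of all genes tested.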
